A study of Mus musculus with 4 samples.

Results

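The 9 genes described here belong to the MHC class II presentation pathway: H2-Aa, H2-Ab1 and H2-Eb1, Cd74, H2-DMa and H2-DMb1, H2-Oa and H2-Ob, and Ciita. They were chosen by name and not by a rule on measured values, but with earlier results of these data known. All 9 are among the 31053 genes in each of 4 single-cell RNA-sequencing matrices. The matrices come from FVB mice (the label gives the genotype as VFB) fed chow and grafted under the skin with MycCaP cells, a prostate cancer line derived from HiMyc mice. Mice received either PBS, the control, or D-CAN, a compound in which WAT7, a peptide that homes to adipose stromal cells (ASC), is joined to an amphipathic sequence in order to deplete these cells. For each treatment there was 1 library from tumor and 1 from the stromal vascular cells of inguinal subcutaneous adipose tissue (SAT), made after removal of dead and red blood cells. With 1 library per group no test was possible, and whether a library pools several mice is not given in the sources used here.

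Class II molecules show peptides from engulfed material to CD4+ T cells and are a mark of professional antigen-presenting cells: dendritic cells, B cells and macrophages. H2-Aa and H2-Ab1 encode the alpha and beta chains of the A molecule, and H2-Eb1 the beta chain of the E molecule. Cd74, the invariant chain, occupies the groove until the endosome, where H2-DMa and H2-DMb1 (H2-DM) help to exchange its remnant for peptide, a step that H2-Oa and H2-Ob (H2-O) restrain. Ciita is the coactivator that switches the whole set on. FVB mice carry an MHC haplotype, H2q, that lacks a functional E alpha chain.

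In the annotation of the mm10 build, 7 of the 9 genes lie on chromosome 17 between 34092340 and 34316674, a stretch of 224 kb, in which H2-Aa is on the minus strand and the others on the plus strand. Ciita lies apart on chromosome 16, from 10480059 to 10528418, and Cd74 on another chromosome. Transcription of class II genes is known to depend on a short promoter module with an X box, bound by RFX and CREB proteins, and a Y box, bound by NF-Y. The 3 stretches below are shown because their genes share this layout, read 5′ to 3′ on the strand of the gene, from RefSeq sequence of GRCm38.p6. Capitals mark GNAAC, letters from the start of the X box, and TGATTGG, letters of the Y box.
H2-Ob, chr17:34238812-34238858, plus strand: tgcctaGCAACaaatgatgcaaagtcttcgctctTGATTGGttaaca
H2-Aa, chr17:34287861-34287910, minus strand: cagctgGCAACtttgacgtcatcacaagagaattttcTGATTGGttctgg
H2-Eb1, chr17:34305770-34305818, plus strand: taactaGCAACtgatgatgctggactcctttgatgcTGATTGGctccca

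The gap between the capital stretches was 23 bases in H2-Ob, 26 in H2-Aa and 25 in H2-Eb1, and the Y box began 59, 50 and 61 bases before the start site. GNAAC followed by TGATTGG after 15 to 40 bases was searched on both strands in windows of 250 bases before to 50 bases after the start. It was present in 0.715% of 32851 windows and in 5 of the 6 members with an entry, the other matches being those of H2-Oa and H2-DMb1, each with a gap of 26 bases. TGATTGG alone was present in 7.82% of windows. Neither window of H2-DMa held the pair, and the letters searched were chosen with these promoters in view, so the match is a description.

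The libraries held 9128 cells, 8986 of them with at least 200 detected genes, and 95930 UMIs (unique molecules) of the 9 genes. Libraries had 6667064 to 17996284 UMIs in all, with a median of 1700 to 4855 per cell, and any pair shared at most 2 cell barcodes. Cells were clustered without the class II genes and named from marker lists. The names below stand for macrophage-like, B-like and so on. All 10 macrophage markers were detected in the macrophage class of each library and all 9 B markers in the SAT B class. Only 7 and 8 of 12 dendritic markers were detected in the SAT dendritic class. Detection here means any UMI in the class and does not tell classes apart. All 10 macrophage markers were also detected in cancer cells, and all 9 B markers in SAT T cells. Values are given in CPM, the UMIs of a gene in a class scaled to one common total of UMIs for every class and library. Intervals are exact 95% intervals that cover counting error only, not differences between mice.

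In the tumors class II RNA came from macrophages and dendritic cells, and in SAT mainly from B cells. Tumor macrophages were 21.6% of the cells and held 88.6% of the class II UMIs with PBS, and 24.9% of the cells and 73.3% of the UMIs with D-CAN. Tumor dendritic cells, 8 cells with PBS and 20 with D-CAN, held 5.05% and 22.1%. The cancer cells were 48.0% and 45.6% of the tumor cells and held 3.24% and 2.14%. In SAT, B cells held 65.2% of the class II UMIs with PBS and 66.8% with D-CAN, and the macrophage class held 16.1% and 23.9%.

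**Figure D1:**
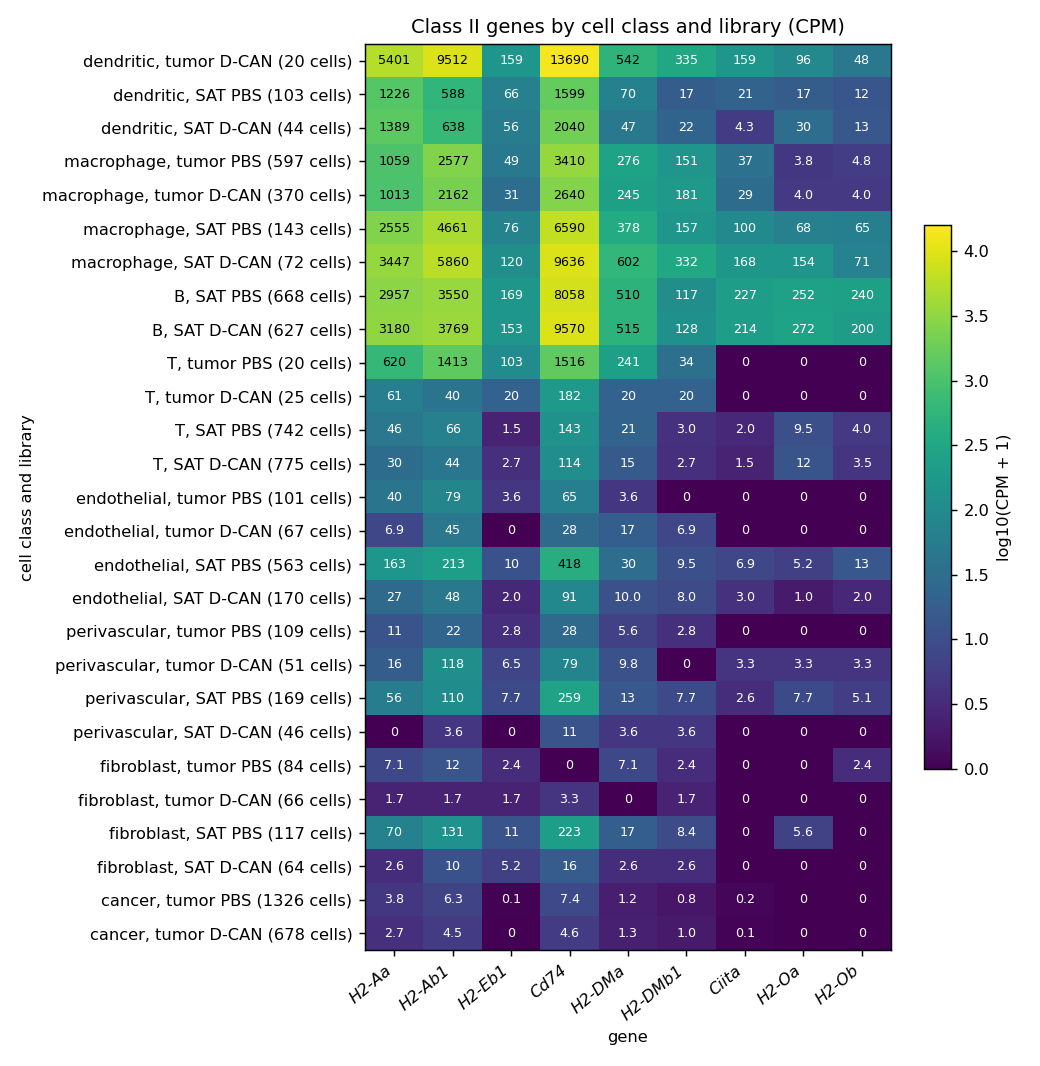
CPM of the 9 genes (columns) in each cell class of at least 20 cells in each library (rows), written in each cell of the map and coloured as log10(CPM + 1). Macrophage and B rows are at least 29.35 CPM for each gene but H2-Oa and H2-Ob in tumor macrophages, the SAT dendritic rows are lower than the B rows for each gene, and the cancer rows are 7.4 CPM or lower for every gene.

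H2-Aa, H2-Ab1 and Cd74 were high in the macrophage classes and in SAT B cells. H2-Aa was 1059 CPM in tumor macrophages with PBS and 1013 with D-CAN, 2555 and 3447 in the SAT macrophage class, and 2957 and 3180 in SAT B cells. H2-Ab1 followed the same order between tumor and SAT macrophages, at 2577 and 2162 CPM in tumor and 4661 and 5860 in SAT, but was lower in SAT B cells, at 3550 and 3769, than in the SAT macrophage class. Cd74 was 3410 and 2640 CPM in tumor macrophages, 6590 and 9636 in the SAT macrophage class, and 8058 and 9570 in B cells. In both treatments tumor macrophages had the lowest level of these 3 classes for each of the 3 genes, and their intervals did not overlap those of the others. The SAT dendritic class, not among these 3, had H2-Ab1 at 588.3 and 638.4 CPM and Cd74 at 1599 and 2040, below tumor macrophages. Its H2-Aa, at 1226 and 1389 CPM, was above that of tumor macrophages.

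H2-Eb1 was detected in each presenting class although FVB mice lack its usual partner. It was 48.6 and 31.4 CPM in tumor macrophages, 75.6 and 120.1 in the SAT macrophage class, and 168.6 and 153.4 in B cells. With PBS the intervals of tumor macrophages (36.2 to 63.9) and the SAT macrophage class (50.3 to 109.3) overlapped, while that of B cells (147.6 to 191.9) lay above both. With D-CAN tumor macrophages (21.3 to 44.5) lay below the SAT macrophage class (92.3 to 153.7), whose interval overlapped that of B cells (135.2 to 173.4). The matrices were aligned to the C57BL/6 reference, and how many reads of the polymorphic H2q alleles were lost was not tested.

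Among the accessory genes, H2-O differed widely between B cells and tumor macrophages, and H2-DMa and H2-DMb1 much less. H2-DMb2, a further H2-DM gene, is not counted in H2-DM here and is described in the next paragraph. H2-Oa was 251.5 CPM in SAT B cells with PBS and 272.5 with D-CAN, against 3.81 CPM (4 UMIs) and 4.05 CPM (4 UMIs) in tumor macrophages. H2-Ob was 239.8 and 199.7 CPM in B cells, against 4.76 CPM (5 UMIs) and 4.05 CPM (4 UMIs) in tumor macrophages. H2-DMa, by contrast, was 509.6 and 515.0 CPM in B cells and 276.1 and 244.9 CPM in tumor macrophages. H2-DMb1 was higher in tumor macrophages, at 151.4 and 181.1 CPM, than in B cells, at 116.6 and 128.1, with intervals that overlapped with PBS and not with D-CAN. As the ratio of H2-O to H2-DM UMIs, B cells stood at 0.784 (0.708 to 0.869) with PBS and 0.734 (0.669 to 0.806) with D-CAN. Tumor macrophages stood at 0.0200 (0.00911 to 0.0384) and 0.0190 (0.00815 to 0.0378), and tumor dendritic cells between them at 0.136 and 0.164.

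H2-DMb1 has a near-identical copy beside it, H2-DMb2, and reads could be split between the pair, so values of either are uncertain. The ratio of H2-DMb2 to H2-DMb1 was 2.47 (2.05 to 2.99) and 2.37 (2.02 to 2.80) in B cells but 0.145 (0.0891 to 0.225) and 0.140 (0.0880 to 0.213) in tumor macrophages. The B cell and tumor macrophage values lay on opposite sides of 1 in both treatments. In the SAT macrophage class the ratio was 0.672 and 0.356.

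Ciita, the coactivator, was 227.3 and 213.6 CPM in B cells, 99.9 and 167.8 in the SAT macrophage class and 37.1 and 29.4 in tumor macrophages. Relative to H2-Ab1 in the same cells, Ciita was 0.0640 and 0.0567 in B cells and 0.0144 and 0.0136 in tumor macrophages. Tumor macrophages were again lowest of the 3 classes and B cells highest, and the intervals of B cells and tumor macrophages did not overlap. The SAT dendritic class, not among the 3, was lower still, at 20.7 CPM (5 UMIs) with PBS and 4.31 CPM (1 UMI) with D-CAN.

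**Figure D2:**
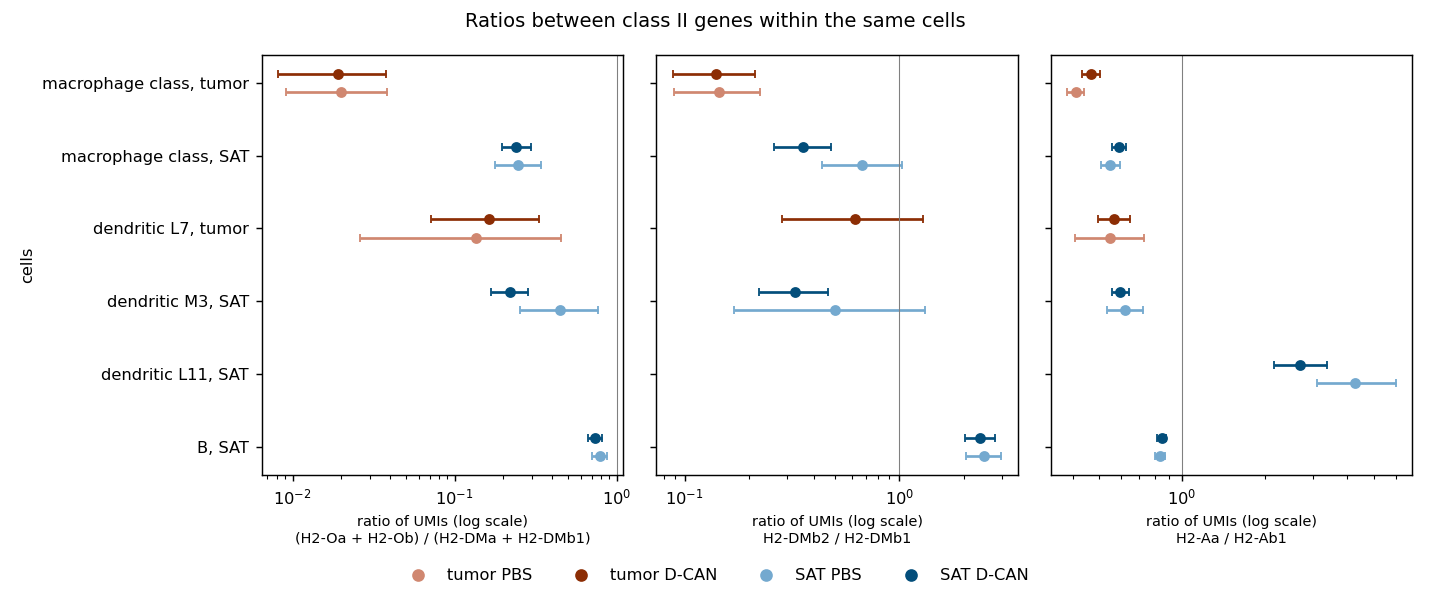
Ratios of UMIs of H2-O to H2-DM (left), H2-DMb2 to H2-DMb1 (middle) and H2-Aa to H2-Ab1 (right), on log axes, in 6 kinds of cell and each library, with exact 95% intervals. Tumor macrophages lie lowest for H2-O to H2-DM, at 0.0200 and 0.0190, and SAT cluster L11 alone lies above 1 for H2-Aa to H2-Ab1.

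Within the tumor macrophage class the class II sum of the 9 genes differed between clusters more than between treatments. The highest sum was in L1, at 16500 CPM with PBS and 20550 with D-CAN. L1 was low in C1qa, a complement gene of resident-type macrophages (1668 and 920.6 CPM), and high in the monocyte genes Plac8 (1322 and 1542), Ccr2 (490.9 and 583.8) and Ly6c2 (346.1 and 583.8). The lowest sum among clusters with at least 20 cells in each library was in L4, at 1678 and 1107 CPM. L4 was high in Arg1, arginase (2127 and 2252 CPM), the elastase Mmp12 (2064 and 1542) and the heme oxygenase Hmox1 (3837 and 3273). Between them, L2 had 11700 and 10710 CPM, L0 had 6902 and 4899, L5 had 6043 and 3242, and L3 had 4293 and 2854. The 6 clusters thus kept the same order in both tumor libraries. C1qa was at least 5636 CPM in each of L0, L2, L3 and L5, whose class II sums still differed from one another.

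L1 held the rare H2-Oa UMIs of the tumor macrophages. Of the H2-Ob UMIs, 4 of 5 with PBS and 1 of 4 with D-CAN lay outside L1. H2-Oa was 25.2 CPM in L1 with PBS and 29.9 with D-CAN and 0 in L0, L2, L3, L4 and L5 in both libraries. Ciita was 94.4 and 119.8 CPM in L1, against 10.6 CPM and 0 in L4. L1 was named macrophage in only 1 of 7 other clusterings and stayed unnamed in the other 6, whereas L0, L2, L3, L4 and L5 were named macrophage in all 7. Sums of the macrophage class are therefore given with and without it below.

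**Figure D3:**
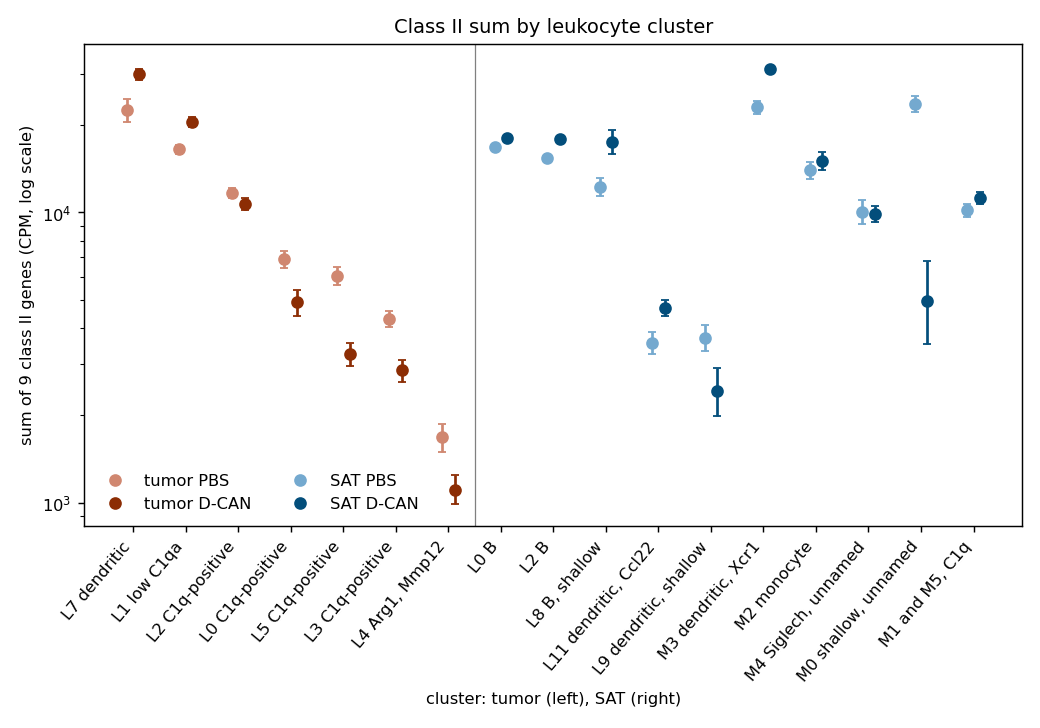
Sum of the 9 class II genes (CPM, log axis) in tumor clusters (left of the line) and SAT clusters (right of it), 1 point per library with an exact 95% interval, hidden where smaller than the point. The tumor clusters descend from L7 to L4 in the same order in both libraries, and in SAT the highest points are M3 (31300 CPM) with D-CAN and M0 (23700) and M3 (23030) with PBS.

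Dendritic cells gave the highest sums in tumors, and in SAT they divided into clusters with high and low sums. The tumor cluster L7, with the cross-presenting dendritic gene Xcr1 and the migration gene Ccr7 (347.5 and 546.1 CPM with PBS), had a sum of 22490 CPM (8 cells) with PBS and 29940 (20 cells) with D-CAN. In SAT, sub-cluster M3, which lay inside the macrophage cluster and carried Xcr1, had 23030 CPM (13 cells) and 31300 (19 cells). The SAT clusters named dendritic had far less: 3551 and 4689 CPM in L11 and 3699 and 2421 in L9, a cluster of shallow cells. L11 carried Ccl22 (1144 and 1221 CPM), Fscn1 (1686 and 2361) and Ccr7 (906.3 and 591.5), genes of mature migratory dendritic cells.

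In L11 the balance of the A chains was turned around. H2-Aa was 1493 and 1662 CPM there and H2-Ab1 349.2 and 618.4, a ratio of 4.28 (3.1 to 6.01) with PBS and 2.69 (2.16 to 3.36) with D-CAN. Elsewhere the ratio was 0.833 and 0.844 in B cells, 0.548 and 0.588 in the SAT macrophage class, 0.411 and 0.468 in tumor macrophages, and 0.546 and 0.568 in tumor dendritic cells. Without the cell with the most class II UMIs, the ratio in L11 was 5.61 (15 cells) and 5.16 (21 cells). More H2-Aa than H2-Ab1 was found in 10 of 15 and 10 of 18 L11 cells with either gene, and in 1 of 13 and 0 of 19 M3 cells. L9 was close to L11 by that count, with 33 of 60 and 5 of 10 cells, although its H2-Aa and H2-Ab1 levels were 889.7 and 889.7 CPM with PBS and 283.5 and 719.7 with D-CAN. Ciita in L11 was 7.43 CPM with PBS and 0 with D-CAN, a count of 0 in 22 cells. The excess of H2-Aa in the summed UMIs of L11 was thus present in both libraries and did not rest on 1 cell.

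The SAT macrophage class was 1 cluster, L6, whose parts differed in class II, and this bears on every comparison with it. Its 143 cells with PBS and 72 with D-CAN were split into 6 sub-clusters: M1 and M5, with C1q genes, M2 with monocyte genes, the dendritic M3, M4 with the plasmacytoid gene Siglech, and the unnamed M0, whose cells had a median of only 686.5 and 684 UMIs. The leading genes of M0 began with the mast cell genes Mcpt4, Cma1 and Cpa3, but too few markers of any class were detected for a name. M0 had a class II sum of 23700 CPM (44 cells) with PBS and 4963 (7 cells) with D-CAN. M3 alone held 1612 of the 5424 class II UMIs of the class with PBS and 7464 of 10696 with D-CAN. M1 and M5 together, 49 cells with PBS and 16 with D-CAN, had a sum of 10180 and 11220 CPM. M1 with D-CAN also carried all 9 B markers, at 3324 CPM in all, against 852.3 with PBS, and H2-Oa and H2-Ob were 98.1 and 176.5 CPM there. The part of B cell RNA in the M1 values was not tested.

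Class II RNA was lower in the tumor macrophage class than in the SAT macrophage class, the mixed cluster L6. Against its C1q sub-clusters M1 and M5 alone the difference of the sum was smaller, as given below. With PBS the sum was 7568 CPM (7402 to 7736) in tumor and 14650 (14260 to 15040) in SAT, a log2 ratio of -0.95 (-1.0 to -0.90). With D-CAN it was 6310 (6155 to 6469) against 20390 (20000 to 20780), a log2 ratio of -1.69 (-1.74 to -1.65). Each of the 9 genes was lower in tumor in both treatments. With PBS 4 of the 9 were at least 2-fold lower, where 8.44% of all genes with 20 or more UMIs were. With D-CAN 8 of the 9 were, against 13.1% of all genes.

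The size of the difference depended on the gene. H2-DMb1 differed least, with log2 ratios of -0.05 (-0.49 to 0.41) and -0.87 (-1.18 to -0.56). H2-Ab1 had -0.85 and -1.44, H2-Aa -1.27 and -1.77, and Cd74 -0.95 and -1.87. The differences were larger for Ciita, at -1.43 and -2.52, H2-Oa, at -4.15 and -5.25, and H2-Ob, at -3.77 and -4.12. H2-DMa had -0.45 and -1.30, and H2-Eb1 -0.64 and -1.94, with an interval for H2-Eb1 that included 0 with PBS. H2-DMa and H2-DMb1 thus differed less between tumor and SAT than the H2-O subunits that restrain them. H2-DMb2, the copy of H2-DMb1, differed more than H2-DMa and H2-DMb1 and is given with the pathway genes below.

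The direction of the sum held, and its size did not, when the cells compared or the summary were changed. As the median over cells the log2 ratio was -2.65 with PBS and -3.16 with D-CAN. With cells of more than 20% mitochondrial UMIs left out it was -0.25 with PBS. The cells were then clustered anew, and 152 of the 198 cells of L6 that passed the limit became unnamed. That value therefore compares a different set of SAT cells. Without L1 the tumor sums were 5976 CPM with PBS and 4085 with D-CAN, and the log2 ratios -1.29 and -2.32. Against the C1q cells M1 and M5 only, the ratio was -0.43 (-0.51 to -0.35) with PBS, and -0.77 when L1 was left out as well. With D-CAN these were only 16 cells, and the ratio was -0.83. In that narrower comparison with PBS, H2-Oa had 4 UMIs in tumor and 1 in SAT, and H2-DMb1 was 151.4 CPM in tumor and 130.4 in SAT. Ciita had 39 UMIs (37.1 CPM) in tumor and 1 UMI (6.52 CPM) in SAT, the opposite direction. The log2 ratios were -0.78 (-4.11 to 4.85) for H2-Oa and 2.51 (-0.05 to 7.85) for Ciita, with intervals that included 0. With PBS the large differences of H2-Oa and Ciita were thus not seen there. With D-CAN they were present in these 16 cells, with log2 ratios of -4.22 (-6.35 to -2.43) for H2-Oa, -5.07 (-7.09 to -3.47) for H2-Ob and -2.13 (-3.04 to -1.17) for Ciita, and M1, which held all 10 H2-Oa and all 18 H2-Ob UMIs of these cells, is the sub-cluster with the B markers.

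Tumor endothelial cells also had less class II RNA than those of SAT. The sum was 190.6 CPM (53 UMIs in 101 cells) against 868.4 (1004 UMIs in 563 cells) with PBS, a log2 ratio of -2.19 (-2.61 to -1.79), and 103.1 against 191.4 CPM with D-CAN, a log2 ratio of -0.89 (-1.50 to -0.33). With PBS all 4 genes with 20 or more UMIs were at least 2-fold lower (15.6% of all genes were), and with D-CAN 2 of 3 were (13.4%). In tumor with PBS, 43 of the 53 UMIs came from 1 cell, without which the ratio was -4.53. With D-CAN the direction turned, to 0.79, when cells with a UMI of any of 8 leukocyte genes were left out. With D-CAN the macrophage markers summed to 319.7 CPM in tumor endothelial cells and 200.3 in those of SAT, where the 9 B markers summed to 226.6 CPM with PBS and 26.9 with D-CAN.

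In SAT endothelial cells the class II genes and the B markers were both lower with D-CAN. Each of the 9 B markers was present there at 2.45% to 4.83% of its B cell level with PBS (median 3.52%), and at a median of 0.429% with D-CAN. The class II genes were at 2.06% to 8.16% of their B cell level with PBS (median 5.50%) and at a median of 1.27% with D-CAN. Most class II genes thus stood above the B markers in both libraries, with H2-Oa (2.06%) and Ciita (3.04%) not above their range with PBS. With D-CAN H2-Oa (1 UMI) was not above it either. The 3 cells with the most class II UMIs held 65.1% of 192 with D-CAN and 8.96% of 1004 with PBS. Macrophages of SAT also hold class II RNA, and the part of free RNA of B cells or macrophages in these values was not tested.

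Cancer cells held class II genes at low shares of their macrophage level, with medians above those of the macrophage markers. The sum was 19.8 CPM (17.6 to 22.2) in 1326 cancer cells with PBS and 14.3 (12.3 to 16.5) in 678 with D-CAN. The 3 cells with the most class II UMIs held 33.3% of 291 with PBS and 47.25% of 182 with D-CAN. The top cell held 48 and 40 of them. As a share of the level in macrophages of the same library, the class II genes had a median of 0.303% (0.140% to 0.540%) with PBS and 0.271% (0.175% to 0.563%) with D-CAN. The 10 macrophage markers, genes such as C1qa and Lyz2 that epithelial cells should lack, had 0.218% (0.130% to 0.432%) and 0.185% (0.125% to 0.449%). H2-DMa (0.444% and 0.545%) and H2-DMb1 (0.540% and 0.563%) stood above every marker, each with an interval that overlapped that of Mrc1 (0.424% and 0.449%). The levels of the other genes lay within the range of the markers, and whether they are free RNA or expression was not tested. Tumor dendritic cells also held class II RNA, 5.05% of the UMIs with PBS and 22.1% with D-CAN. With D-CAN these 20 cells had 12 UMIs of the macrophage markers, so those markers do not follow free RNA of dendritic cells. The part of such RNA was not tested. Ciita had 3 UMIs and 1 UMI in cancer cells, and H2-Oa and H2-Ob none.

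The share of cancer cells with a class II UMI was low once depth was made equal. With each cell thinned to 1000 UMIs it was 1.67% with PBS (22 of 1318 cells, 1.05% to 2.52%) and 1.77% with D-CAN (12 of 677 cells, 0.919% to 3.08%), and 8 and 1 shallower cells were left out. Without thinning it was 11.9% and 12.1%, at a median of 10769.5 and 18314 UMIs per cell. Tumor fibroblasts had 5.95% and 1.54% after thinning, at a median depth of 4644 and 7965.5 UMIs. Cancer cells that held a UMI of any of the 8 leukocyte genes had 30.4 and 24.6 CPM of class II, and those that held none had 11.2 and 6.77. Thinning to 1000 UMIs discarded most UMIs of the cancer cells. Whether their class II UMIs are free RNA or a low class II program of the cancer cells was not tested.

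**Figure D4:**
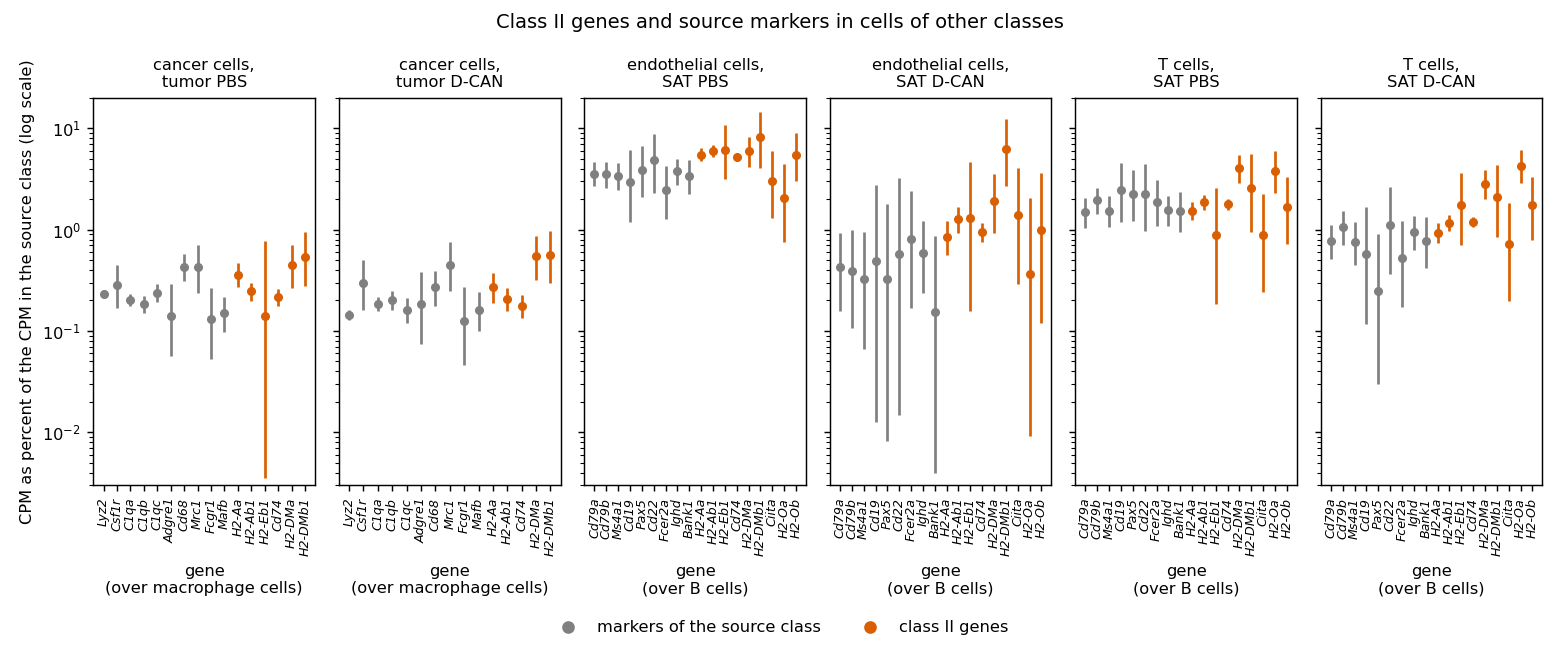
CPM of each gene in cancer, SAT endothelial and SAT T cells as a percent of its CPM in the source class named under each panel (log axis), with exact 95% intervals of the ratio, for markers of the source class (grey) and class II genes (orange). In cancer cells the class II points lie within the range of the markers or slightly above it. In SAT endothelial cells they lie above most markers, except H2-Oa in both libraries and Ciita with PBS.

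D-CAN and PBS libraries differed little in the class II level of B cells and of tumor macrophages. In SAT B cells the sum was 16080 CPM (15870 to 16290) with PBS and 18000 (17800 to 18210) with D-CAN, a log2 ratio of 0.16, and none of the 9 genes differed 2-fold (3.84% of all genes did). In tumor macrophages it was 7568 and 6310 CPM, a log2 ratio of -0.26 (-0.31 to -0.21), and 0 of 7 genes with enough UMIs differed 2-fold (3.96%). Without L1 that ratio was -0.55. With 1 library each, a difference between treatments and a difference between libraries cannot be told apart.

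The SAT macrophage and endothelial classes differed more. In the SAT macrophage class the log2 ratio of D-CAN over PBS was 0.48, all 9 genes were higher with D-CAN, and H2-DMb1 (156.6 and 331.7 CPM) and H2-Oa (67.5 and 154.4 CPM) were at least 2-fold higher (5.84% of all genes were). The dendritic M3 was 13 of 143 cells of this class with PBS and 19 of 72 with D-CAN, and the median cell had 12810 CPM with PBS and 11560 with D-CAN, the opposite order. In SAT endothelial cells the log2 ratio was -2.18, and all 4 genes with enough UMIs were at least 2-fold lower with D-CAN (2.78% of all genes were). The B markers in those cells were also lower, at 226.6 and 26.9 CPM, and median depth was 1031 and 4235.5 UMIs. Different clusters held most of the class in each library: c3, c6 and c9 had 293, 116 and 154 cells with PBS and 47, 94 and 29 with D-CAN. The sum was 1425 and 349.3 CPM in c3, 213.0 and 127.3 in c6, and 1148 and 175.3 in c9, so it was lower with D-CAN in each but least so in c6.

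The 25 other genes of the pathway serve regulation, peptide generation, turnover and costimulation. Some were lower in the tumor than in the SAT macrophage class, like the 9 members, and the proteases were not. With PBS 21 of the 25 had 20 or more UMIs, of which 13 were lower and 8 higher in tumor (median log2 ratio -0.27). Of these, 3 were at least 2-fold lower (8.44% of all genes were) and 4 at least 2-fold higher (11.2% were). With D-CAN 11 of 20 were lower and 9 higher (median -0.06). Of these, 4 were at least 2-fold lower (13.1% of all genes were) and 5 at least 2-fold higher (13.3% were). The proteases were higher in tumor. Cathepsin S (Ctss), which trims the invariant chain, was 4301 CPM in tumor and 1456 in SAT with PBS, and 3679 and 634.8 with D-CAN. The log2 ratios for cathepsin D (Ctsd) were 1.74 and 3.32, for cathepsin L (Ctsl) 1.83 and 1.88, for cathepsin B (Ctsb) 0.81 and 2.42, and for legumain (Lgmn) 2.0 and 3.64. Irf8, a regulator of dendritic and B cells, was lower in tumor like class II, with 225.7 against 753.5 CPM and 230.7 against 1542 CPM, as did H2-DMb2, with log2 ratios of -2.27 and -2.22. Among the listed factors of the promoter module, Rfxap (0.17 and -0.33) and Creb1 (-0.47 and -0.07) had intervals that included 0. Values of the other listed factors, Rfx5, Rfxank, Nfya, Nfyb and Nfyc, are not given here. The costimulatory gene Cd86 had -0.53 and -0.78, and March1, a ligase that removes class II from the surface, -0.38 and -0.61. Since M3 and its Irf8 are part of the SAT class, these values compare the cells as clustered.

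Across 27 sums of a class in a library, each class II gene followed the mean of the other 8 on the log2(CPM + 10) scale, with Pearson r of 0.971 for H2-Aa, 0.967 for Cd74 and H2-Ab1, and 0.970 for H2-DMa, and lowest for H2-Oa, at 0.844, and H2-Ob, at 0.834. Among 11751 other genes, those most like the members' mean were Cd86 (0.954), Pkib (0.934), H2-DMb2 (0.933), Napsa (0.931), Cd83 (0.919), Ly86 (0.915), Gm6377 (0.908), Grb2 (0.901), Tnfrsf13b (0.899) and Wdfy4 (0.899). The points share libraries and depth, and these r values are descriptions.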

How the data were processed

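The deposited files hold UMI counts per gene and cell, which the authors made with Cell Ranger 3.1.0 (the SAT D-CAN matrix header names another release) and STAR 2.6 on mm10. Here cells with at least 200 genes were clustered per tissue in Seurat 5.3.0, with class II genes withheld, and named from marker lists. Settings were 2000 variable genes, 10 principal components and resolution 0.8. Seed 1 was used for thinning cells. Counts were summed per class and library and given as CPM with exact Poisson, binomial or conditional binomial intervals (scipy 1.17.1, Python 3.11.15). Counts of genes with a 2-fold difference use genes with at least 20 UMIs over both sums, and classes with at least 20 cells. Ratios below these limits are given against M1 and M5. Ratios between class II genes within the same cells are also given for smaller groups of cells. The ratios and their intervals were tested on simulated Poisson counts only. These hold no differences between cells or mice, so the test covers counting error alone. Scrublet in scanpy 1.11.5 called 16 of 9128 cells, too few to have worked, so doublets were kept, and the 178 cells with the highest scores were left out as an alternative. Of the planned pathway genes 25 were measured, and Ifi30 and H2-Ea-ps were not analysed here. Named genes are the 9 members, the fixed pathway list and the 10 likest genes. Members and lists were chosen with earlier results of these data known. Genes naming M3, M4 and L11 were chosen after clustering. Protein sequences and the promoters of H2-Ab1, Cd74 and Ciita were not used here.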

Additional observations from a re-analysis of the deposited data

Results flagged for a closer look

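The log2 ratio of D-CAN over PBS for the sum of the 9 genes had opposite signs in tumor and SAT in a pair of classes, and with 1 library per group the differences were not tested. In macrophages it was -0.26 in tumor and 0.48 in SAT, where the dendritic sub-cluster M3 made up 13 of 143 cells with PBS and 19 of 72 with D-CAN. In perivascular cells it was 1.73 in tumor (26 and 73 UMIs, of which 63 of the 73 came from 1 cell with D-CAN) and -4.43 in SAT (183 and 6 UMIs). In those SAT cells the 9 B markers summed to 128.2 CPM (50 UMIs) with PBS and 3.63 CPM (1 UMI) with D-CAN, and their part in the difference was not tested.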

How the results depend on the processing

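Of 184 alternative values 177 kept the direction of the value reported, and 114 moved by less than its interval. The 184 include the shares of cancer cells, percentages that could not change direction, so the count of 177 overstates the agreement. Tumor over SAT in macrophages (-0.95 with PBS, -1.69 with D-CAN, log2) became -1.02 and -1.81 with at least 500 genes per cell, -1.36 and -2.53 with 20 principal components, -1.29 and -2.32 at resolution 0.4 and at 1.2 and without L1, -1.38 and -2.51 with no gene withheld from clustering, -1.37 and -2.47 without the highest doublet scores, and -2.65 and -3.16 as the median over cells. With PBS it was -0.25 at no more than 20% mitochondrial UMIs, where most cells of SAT L6 were no longer named macrophage. Against M1 and M5 it was -0.43 with PBS, and -0.77 against these without L1. With D-CAN it was -1.55 without Cd74. Leaving out L1 or the top cell and the comparison with M1 and M5 were chosen after seeing the data. At resolution 0.4 and 1.2 only the first clustering changed, and leukocytes were clustered again at 0.8. Those values therefore do not vary the resolution of the macrophage clusters.

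Tumor over SAT in endothelial cells became -1.78, -4.26, -4.39 and -4.53 with PBS (500 genes, highest doublet scores left out, no cell with a leukocyte UMI, without the top cell), and with D-CAN -0.26 without the highest doublet scores and 0.79 without cells with a leukocyte UMI, the opposite direction.

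D-CAN over PBS in tumor macrophages (-0.26) became -0.46 (20% mitochondrial), -0.57 (20 components; no gene withheld), -0.55 (either resolution; without L1), -0.52 (doublet scores), -0.65 (median) and -0.18 (without Cd74). In SAT macrophages (0.48) it became 0.55 (500 genes), 0.59 (20 components), 0.56 (no gene withheld), 0.58 (doublet scores), -0.15 (median) and 0.42 (without Cd74). In tumor endothelial cells (-0.89) it became 1.48 without the highest doublet scores and 0.71 without the top cell, and in SAT endothelial cells (-2.18) -1.71 (500 genes), -2.53 (doublet scores) and -2.78 (without the top cell). In cancer cells (-0.47) it became -0.80 (500 genes) and -0.92 (20% mitochondrial), in SAT dendritic cells (0.23) -1.07 (median) and -0.019 (without the top cell), in B cells (0.16) 0.072 without Cd74, and in tumor fibroblasts (-1.74, from 14 and 6 UMIs) 0.77 at resolution 0.4.

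The share of cancer cells with a class II UMI (1.67% and 1.77%) became 2.91% with PBS when thinned to 2000 UMIs, 0.59% with D-CAN when thinned to 500, 11.9% and 12.1% with no thinning, and 0.228% and 0.295% for at least 2 UMIs. Medians over cells were 0 in the classes that present little, so they gave no ratio there. At the mitochondrial limit most cells of SAT L6 became unnamed, and under 20 SAT cells with D-CAN were named macrophage. M1 and M5 also held under 20 cells with D-CAN. No paired analysis was possible because each group is 1 library and no result comes from a test. The causes of these shifts were not tested.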

Other observations

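T cells of SAT held little class II RNA, and more of the class II genes stood above the B markers with D-CAN than with PBS. The sum was 295.5 CPM (272.1 to 320.3) in 742 T cells with PBS and 224.2 (206.4 to 243.2) in 775 with D-CAN. The 9 B markers stood at a median of 1.90% (1.48% to 2.46%) of their B cell level with PBS and 0.775% (0.25% to 1.12%) with D-CAN. H2-DMa, at 4.04% and 2.84%, H2-Oa, at 3.79% and 4.24%, and H2-DMb1 (6 and 7 UMIs) stood above every B marker in both libraries. The class II genes had a median of 1.77% with PBS and 1.74% with D-CAN. With D-CAN only H2-Aa and Ciita did not stand above every B marker. In that library 1 T cell held 167 of the 582 class II UMIs, and the top 3 cells held 52.4%, against 22.1% with PBS. The part of these cells in the shares was not tested. The H2-Oa UMIs, 19 with PBS and 30 with D-CAN, were spread over 17 and 25 cells. Between T cell clusters, H2-Oa was 22.9 and 24.8 CPM in L3, whose leading genes include Ikzf2, Ctla4 and Icos, genes of regulatory T cells, and 6.64 and 7.22 in L1, the Lef1 cluster. L10, with Il17a and Cxcr6, had 2 H2-Oa UMIs in 17 cells and 5 in 29 cells, all 5 of them in 1 cell. L3 also had a higher class II sum (412.1 and 543.2 CPM) than L1 (192.7 and 80.2), of which 1 cell held 18.5% and 31.1% of the UMIs, and the part of such cells in the H2-Oa level was not tested.

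SAT B cluster L8, a shallow cluster, had Ciita at 519.8 and 770.9 CPM, against 205.5 and 227.6 in L0 and 224.5 and 188.2 in L2, the other B clusters. Its class II sum was not above theirs with PBS (12270 against 16780 and 15470 CPM) and close to theirs with D-CAN (17500 against 18080 and 17960).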
